A study of Mus musculus with 40 samples.

Results

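The genes described here are 40 genes of the cell cycle and of DNA replication: cyclins, cyclin-dependent kinases and their inhibitors, proteins that open replication origins and build the fork, enzymes that supply deoxynucleotides, proteins of mitosis, and stress-inducible regulators of growth. The list names them and uses no measured value as a condition, but it was drawn up with earlier results of these data known. All probe sets annotated to a single one of these symbols were taken, a gene counted as measured when, in any group, 3 arrays or more of a probe set reached log2 4, and the probe set of highest mean represented it. By this rule 24 of the 40 genes were measured, 15 stayed below the minimum and 1, Ccnb1, had no probe set with a single symbol. The whole array gave 9695 measured genes.

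Most hepatocytes of an adult liver rest outside the cell cycle but can enter it after injury, partial hepatectomy or a mitogen. D-type cyclins then pair with Cdk4, and cyclin E with Cdk2, which releases E2F factors to transcribe the genes of DNA synthesis. The Mcm helicase, Pcna and the enzymes that make deoxynucleotides serve S phase, Cdk1 with the B-type cyclins drives mitosis, and inhibitors such as p27, the product of Cdkn1b, hold the kinases back. Nrf2, encoded by Nfe2l2, is the transcription factor that induces antioxidant and detoxification genes, and it is known to take part in liver regeneration.

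Livers came from 12-week-old male mice, Wt or Nrf2-null (bred from inbred heterozygotes) on a C57BL/6J background. Each genotype received vehicle, 300 μmol/kg of the dithiolethione D3T, or 3, 10 or 30 μmol/kg of the triterpenoid CDDO-Im, by gavage as 3 treatments within 5 days. The livers were removed 24 hours later. The question of the study was which responses to these 2 activators of Nrf2 signaling are shared, which belong to 1 compound, and which need Nrf2. With 4 mice in each of 10 groups and 1 array per mouse there were 40 arrays, and every value below is a log2 level of 1 probe set, so levels are compared between mice and never between genes.

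One Nfe2l2 probe set lay between 10.77 and 11.75 in all 20 Wt mice, against 2.72 to 3.10 for all 20 Nrf2-null mice. On another Nfe2l2 probe set the genotypes overlapped, at 4.493 to 7.099 in Wt and 5.961 to 7.475 in Nrf2-null mice. The 6 hepatocyte markers were all measured and their summed level lay at 18.16 to 18.19 in Wt vehicle mice, 18.18 to 18.24 with D3T and 18.04 to 18.13 with 30 μmol/kg CDDO-Im, so that every mouse of that dose was below every mouse of the other 2 groups. The median of all genes was displaced by -0.157 between 30 μmol/kg CDDO-Im and vehicle in Wt liver by -0.161 between that dose and D3T, and by 0.188 between Nrf2-null and Wt livers at that dose. Members called in these 3 comparisons are therefore also given relative to that median. Centring each array moved the share of higher genes among all called genes from 11.9% to 53.9% in the first of these comparisons, from 14.5% to 53.8% in the second and from 82.2% to 39.2% between Nrf2-null and Wt livers at that dose. For the genotype difference in response to 30 μmol/kg the median was 0.167, and that share moved from 85% to 48.3%. Between Nrf2-null and Wt livers at 10 μmol/kg the median was 0.101, and the share moved from 77.1% to 50.7%. Marker sums are given without either correction. At 30 μmol/kg in Wt liver the hepatocyte markers had a median change of -0.12 against vehicle and -0.106 against D3T. Both were smaller than the displacement of all genes. By the animal numbers of the labels, the Wt D3T and 30 μmol/kg CDDO-Im mice form 1 run and the other Wt mice another, and the Nrf2-null D3T and 30 μmol/kg mice each have a run apart from their vehicle mice. A run of numbers and a treatment therefore cannot be told apart when D3T or 30 μmol/kg CDDO-Im is set against vehicle or 10 μmol/kg. Clock genes also differed: the mean of 7 evening minus that of 5 morning genes was 2.78 (2.30 to 3.99) with 10 μmol/kg CDDO-Im in Wt liver, -2.76 (-2.84 to -2.54) with vehicle, -0.248 (-1.43 to 0.489) with D3T and -2.37 (-2.52 to -2.26) with 30 μmol/kg.

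To show where these genes are read from, the 300 bases around the start site (250 before, 50 after) were taken from RefSeq promoters of assembly GRCm38.p6, which held 33 of the 40 genes and 19 of the 24 measured ones. Entries were missing for Ccna2, Ccnd1, Ccnd2, Ccne2, Mcm4, Aurkb and Myc. An E2F-type motif (TTTNNCGC on either strand) was present for 6 of the 19 measured genes (31.6%) against 5.17% of all 32851 promoters, namely Mcm3, Mcm5, Mcm6, Mcm7, Cdk1 and Cdk2. CCAAT was present for 15 of 19 (78.9%) against 37.4%, CACGTG for 3 of 19 (15.8%) against 7.15%, and the antioxidant-response-type motif TGACNNNGC for 6 of 19 (31.6%) against 12.4%. TTTGAA, the cell cycle homology region of mitotic genes, was present for 2 of the 19 measured genes (10.5%), Cdk1 and Cdc20, and for 7 of the 14 genes below the minimum or without a usable probe set (50%), against 17.9% of all promoters. A member counted when any of its windows held the motif, whereas the share of all promoters counts each of 32851 windows, from 27025 genes. The 2 shares are therefore not in the same unit. A match describes letters and not a bound site. The 150 bases before the start are printed below for Mcm6, Mcm5, Cdk2 and Cdk1, which hold an E2F-type motif there (in capitals), and for Tk1, the gene that was lowest with 30 μmol/kg CDDO-Im against D3T and holds none.
Mcm6 (chr1:128359706-128359855, minus strand): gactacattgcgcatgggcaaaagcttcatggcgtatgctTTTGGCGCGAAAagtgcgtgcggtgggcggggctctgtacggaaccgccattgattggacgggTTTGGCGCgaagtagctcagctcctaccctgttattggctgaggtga
Mcm5 (chr8:75109359-75109508, plus strand): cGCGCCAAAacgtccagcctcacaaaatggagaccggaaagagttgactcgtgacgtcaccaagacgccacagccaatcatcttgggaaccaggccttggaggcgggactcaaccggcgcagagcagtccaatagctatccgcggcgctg
Cdk2 (chr10:128705052-128705201, minus strand): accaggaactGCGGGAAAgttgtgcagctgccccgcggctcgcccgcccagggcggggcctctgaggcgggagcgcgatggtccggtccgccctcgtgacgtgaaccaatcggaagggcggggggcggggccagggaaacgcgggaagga
Cdk1 (chr10:69352913-69353062, minus strand): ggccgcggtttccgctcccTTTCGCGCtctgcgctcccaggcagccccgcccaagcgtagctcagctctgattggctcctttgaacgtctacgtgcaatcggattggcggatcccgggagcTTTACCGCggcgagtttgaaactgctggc
Tk1 (chr11:117826015-117826164, minus strand): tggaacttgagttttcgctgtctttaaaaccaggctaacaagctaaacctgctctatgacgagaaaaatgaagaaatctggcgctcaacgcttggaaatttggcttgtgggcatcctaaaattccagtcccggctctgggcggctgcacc

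Genes of mitosis were mostly near background in these livers. Of the 15 genes below the minimum, 10 never reached log2 4 on the probe set used. Plk1, a kinase of mitotic entry, read at most 2.15 on the 40 arrays, and Bub1, a checkpoint kinase, at most 2.54. The other 5 reached it on a few arrays: Mki67, the proliferation antigen, on 7, Ccnb2 (cyclin B2) and Gadd45b on 2 each, and Ccne1 (cyclin E1) and Birc5 (survivin) on 1 each. The highest Mki67 value, 5.35, was in Nrf2-null vehicle replicate 4. The highest values of Ccnb2 (4.65), Ccna2 (3.46), Aurka (2.91), Aurkb (3.42) and Cdc6 (2.66) all came from 1 mouse, Wt 30 μmol/kg CDDO-Im replicate 2. For a whole liver, fewer cells of a type and less RNA per cell cannot be told apart.

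**Figure D1:**
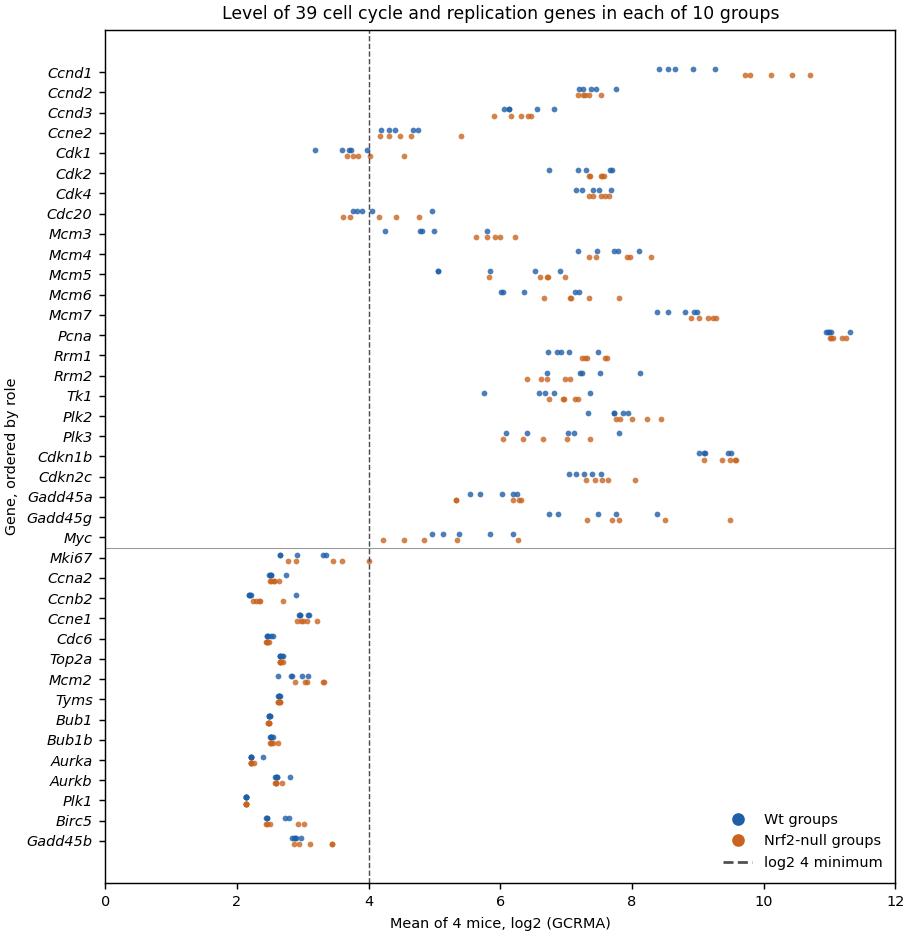
Each point is the mean of 4 mice in 1 group (log2, horizontal axis) for 24 measured genes above the grey line and 15 genes below the minimum under it, with Wt groups in blue, Nrf2-null groups in orange and the minimum of log2 4 dashed. The points of a gene may be compared with each other, while positions of different genes reflect their probe sets, and those of Ccnd1 separate by genotype, from 8.41 to 9.26 in Wt and from 9.72 to 10.71 in Nrf2-null groups.

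Ccnd1, cyclin D1, which joins Cdk4 early in G1, was higher in Nrf2-null than in Wt livers under all 5 treatments. In Wt vehicle mice it read 8.64, 8.35, 9.03 and 8.57, and in Nrf2-null vehicle mice 9.71, 10.45, 9.60 and 10.69. The genotypes did not overlap, and the difference of 1.46 ± 0.379 (SE) was a 2.76-fold higher level (limma, adjusted p = 0.0113). With D3T the Wt mice read 8.92, 9.38, 8.81 and 8.58 and the Nrf2-null mice 10.64, 11.22, 11.81 and 9.16. Only Nrf2-null replicate 4 lay within the Wt range there, and the difference was 1.78 ± 0.379 (limma, adjusted p = 0.00261). With CDDO-Im the difference was 1.38 at 3 μmol/kg, 1.17 at 10 μmol/kg and 1.17 at 30 μmol/kg, where it was 0.98 relative to the median of all genes (limma, adjusted p = 0.0166, 0.0343 and 0.0149). Both other Ccnd1 probe sets gave the same sign under every treatment, with vehicle differences of 2.17 and 1.56 (limma, adjusted p = 0.000606 and 0.00729). One of them was called with vehicle and D3T only and the other under every treatment but 3 μmol/kg. The vehicle call held whichever mouse was left out, whereas that at 10 μmol/kg was lost in 5 of 8 such fits, at 0.96 to 1.22, those without Wt replicates 1, 3 or 4 or Nrf2-null replicates 1 or 3. At 3 μmol/kg the call was lost without Wt replicate 1 (1.28) or Nrf2-null replicate 3 (1.16), and at 30 μmol/kg without Nrf2-null replicate 4 (0.96). On the probe set used, no treatment moved Ccnd1 past the threshold against the vehicle of its genotype, with 0.28 for D3T and 0.61 for CDDO-Im at 30 μmol/kg (Wt liver), while another probe set was called at 30 μmol/kg (1.24, limma, adjusted p = 0.03). Centring the arrays removed the calls at 10 and 30 μmol/kg (1.09 and 0.95, limma, adjusted p = 0.0524 and 0.0515). The call at 10 μmol/kg was also lost with no expression minimum (limma, adjusted p = 0.0653), and the D3T call when the fit held only the groups compared (adjusted p = 0.118).

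Ccnd3, cyclin D3, differed between the compounds in Wt liver. It read 6.54, 6.58, 6.84 and 6.26 with vehicle, 6.79, 6.86, 6.69 and 6.92 with D3T, 5.74, 6.18, 6.30 and 6.31 with CDDO-Im at 10 μmol/kg and 6.12, 6.43, 5.53 and 6.15 with 30 μmol/kg. Every D3T mouse lay above every mouse of these 2 CDDO-Im groups. Against D3T it was lower by 0.68 ± 0.175 at 10 μmol/kg and by 0.76 ± 0.175 at 30 μmol/kg, the latter -0.60 relative to the median of all genes (limma, adjusted p = 0.00665 and 0.00145). Against vehicle it fell by 0.50 at 30 μmol/kg (limma, adjusted p = 0.0368), or -0.34 relative to the median of all genes. That call was lost when arrays were centred (-0.32, adjusted p = 0.208), with no expression minimum, with only the groups compared and in 5 of the 8 fits that left out a mouse, at -0.53 to -0.32 (Wt vehicle replicates 1 to 3, 30 μmol/kg replicates 3 and 4). Ccne2, cyclin E2, was called in 1 comparison, with D3T, where Wt mice read 4.05, 5.03, 3.92 and 4.23 and Nrf2-null mice 5.20, 5.58, 4.89 and 5.95. The mice overlapped and the difference of 1.10 ± 0.319 (limma, adjusted p = 0.0254) was lost with no expression minimum, with only the groups compared, with array weights (0.89) and in 5 of 8 fits without a mouse, at 0.92 to 1.07 (D3T replicates 1, 3 and 4 of Wt, 2 and 4 of Nrf2-null). Ccnd2, cyclin D2, passed the threshold in no comparison on the probe set used, and on another it was lower at 10 μmol/kg CDDO-Im than with vehicle in Wt liver (-0.80).

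Cdk2, the partner of cyclin E at the start of S phase, rose in Wt mice given 10 μmol/kg CDDO-Im and was lower at 30 μmol/kg than at 10 μmol/kg or with D3T. It read 6.98, 7.12, 7.19 and 7.43 with vehicle, 7.71, 7.72, 7.74 and 7.48 with D3T, 7.49, 7.91, 7.79 and 7.58 with CDDO-Im at 10 μmol/kg and 6.49, 7.17, 6.17 and 7.14 with 30 μmol/kg. The D3T and 10 μmol/kg mice all lay above all vehicle and 30 μmol/kg mice. Against vehicle, Cdk2 rose by 0.51 ± 0.156 at 10 μmol/kg (limma, adjusted p = 0.0207), while the change of 0.48 with D3T did not pass (adjusted p = 0.0707). The rise was lost without Wt vehicle replicates 1 or 2 or 10 μmol/kg replicate 2, at 0.44 to 0.49. At 30 μmol/kg it was lower than with D3T by 0.92 ± 0.156, which was -0.76 relative to the median of all genes, and lower than at 10 μmol/kg by 0.95 ± 0.156 (limma, adjusted p = 5.36e-05 and 9.42e-05). Both calls held under every alternative and with any mouse left out. The 30 μmol/kg and vehicle mice overlapped (exact two-sided permutation p = 0.23). The difference of -0.44 between them (limma, adjusted p = 0.0396) was -0.28 relative to the median of all genes. Its call was lost on centring (-0.26, limma, adjusted p = 0.28), with no expression minimum (adjusted p = 0.0667), with only the groups compared (adjusted p = 0.179) and in 5 of 8 fits without a mouse, at -0.46 to -0.25 (Wt vehicle replicates 2 to 4, 30 μmol/kg replicates 1 and 3). In Nrf2-null mice at 30 μmol/kg Cdk2 read 7.48, 7.22, 7.35 and 7.36, all above the Wt mice of that dose (0.61 ± 0.156, limma, adjusted p = 0.00255). This was 0.42 relative to the median of all genes, and centring removed the call (0.38, adjusted p = 0.0618).

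Cdk4, the partner of the D-type cyclins, was also lower with CDDO-Im than with D3T. Wt mice read 7.87, 7.91, 7.51 and 7.45 with D3T, 6.82, 7.28, 7.45 and 7.40 with CDDO-Im at 10 μmol/kg and 7.17, 7.19, 6.86 and 7.36 with 30 μmol/kg. The lowest D3T mouse stood just above the highest mouse of either dose. The differences from D3T were -0.45 ± 0.135 at 10 μmol/kg and -0.54 ± 0.135 at 30 μmol/kg (limma, adjusted p = 0.0186 and 0.00281), the latter -0.38 relative to the median of all genes. The former was lost without D3T replicates 1 or 2 or 10 μmol/kg replicate 1, at -0.39 to -0.31, with only the groups compared, and on both other probe sets (-0.40 and -0.26), which kept the call at 30 μmol/kg. For the response to 30 μmol/kg CDDO-Im, Cdk4 was the member whose change differed between genotypes. Wt mice went from a mean of 7.50 to 7.14 and Nrf2-null mice from 7.34 to 7.59, a difference of 0.61 ± 0.190 (limma, adjusted p = 0.0333). It was 0.44 relative to the median of all genes. Centring (0.45, limma, adjusted p = 0.1) and both other probe sets (0.39 and 0.61, adjusted p = 0.236 and 0.16) removed that call, as did having no expression minimum, fitting only the groups compared and 6 of the 16 fits that left out a mouse, at 0.48 to 0.61 (Wt vehicle replicates 1 and 2, Wt 30 μmol/kg replicate 3, Nrf2-null vehicle replicate 3, Nrf2-null 30 μmol/kg replicates 2 and 4).

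Cdk1, the kinase of mitotic entry, lay near the minimum, at log2 4 or more on 9 of 40 arrays. It read 3.66, 3.56, 3.68 and 3.50 in Wt vehicle mice and 3.67, 5.27, 4.14 and 5.05 in Nrf2-null vehicle mice. Replicates 2 and 4 were the highest, and the difference of 0.93 ± 0.305 (limma, adjusted p = 0.0435) was lost on centring (0.87), with no expression minimum, with only the groups compared and in 6 of 8 fits without a mouse, at 0.69 to 0.96 (every Wt vehicle replicate, Nrf2-null vehicle replicates 2 and 4). Cdc20, an activator of the anaphase-promoting complex, reached log2 4 on 17 arrays and was called in no comparison. Its highest values were 7.42 in Wt 30 μmol/kg CDDO-Im replicate 2, 5.84 in Nrf2-null D3T replicate 4, and 5.57 and 5.78 in Nrf2-null vehicle replicates 2 and 4. Cdk1 was also raised in these mice, at 5.14, 4.87, 5.27 and 5.05. Over the 40 arrays, deviations of Cdk1 and Cdc20 from their group means had a correlation of 0.86, given as a description of arrays that share groups of 4.

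Cdkn1b, which encodes the inhibitor p27, was the member called in the largest number of comparisons. In Wt liver it read 9.23, 8.95, 9.12 and 9.10 with vehicle, 9.26, 8.96, 8.84 and 8.99 with D3T, 9.49, 9.36, 9.42 and 9.59 with CDDO-Im at 3 μmol/kg, 9.33, 9.76, 9.45 and 9.49 with 10 μmol/kg and 9.16, 8.95, 9.09 and 9.22 with 30 μmol/kg. The mice of the 2 lower doses lay above the mice of every other Wt group, while those of the highest dose overlapped vehicle. It rose by 0.41 ± 0.0949 at 10 μmol/kg against vehicle, was higher by 0.50 than with D3T and was lower at 30 than at 10 μmol/kg by 0.40 (limma, adjusted p = 0.0034, 0.000652 and 0.00291), whereas the change of 0.36 at 3 μmol/kg did not pass (adjusted p = 0.0737). The clock genes set the 10 μmol/kg mice apart from the other Wt groups, as given above. The clock value of the 3 μmol/kg mice was -2.78 (-2.99 to -2.48). The part of the clock genes in these results was not tested.

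The Nrf2-null mice ran otherwise. Cdkn1b read 9.71, 9.71, 9.33 and 9.52 with vehicle, 9.17, 9.0, 9.04 and 9.13 with 3 μmol/kg CDDO-Im, 9.36, 9.33, 9.48 and 9.32 with 10 μmol/kg and 9.61, 9.47, 9.62 and 9.63 with 30 μmol/kg. It fell by 0.48 ± 0.0949 at 3 μmol/kg against vehicle (limma, adjusted p = 0.0102), a call lost without Nrf2-null vehicle replicate 2 (-0.43) and with only the groups compared (adjusted p = 0.368). The response to 10 μmol/kg differed between genotypes by -0.60 ± 0.134 (limma, adjusted p = 0.00749) and was called with any mouse left out. The clock value at that dose was 2.78 (2.3 to 3.99) in Wt and -0.148 (-2.55 to 2.33) in Nrf2-null liver, and its part was not tested. Nrf2-null livers were higher than Wt by 0.47 with vehicle, by 0.47 with D3T and by 0.48 with 30 μmol/kg CDDO-Im, and lower by 0.38 with 3 μmol/kg (limma, adjusted p = 0.00135, 0.00132, 0.000207 and 0.00928). Relative to the median of all genes the first 3 were 0.45, 0.46 and 0.29. The vehicle and D3T calls were lost with only the groups compared (limma, adjusted p = 0.0756 and 0.0771). A second, dimmer probe set gave the same sign and a call for the rise at 10 μmol/kg in Wt liver (0.75, limma, adjusted p = 0.00633). It gave the opposite sign without a call for the fall at 3 μmol/kg in Nrf2-null liver (0.25) and for the genotypes at 3 μmol/kg (0.33) and 30 μmol/kg (-0.33), so the direction of these 3 depends on the probe set. It gave no call for the genotypes with vehicle (0.33) or D3T (0.33), for the genotype difference in response (-0.62) or between 30 and 10 μmol/kg (-0.21), all of the same sign, and it was called for 30 μmol/kg against vehicle in Wt liver (0.54, limma, adjusted p = 0.0413). The other inhibitor, Cdkn2c (p18), was called nowhere.

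**Figure D2:**
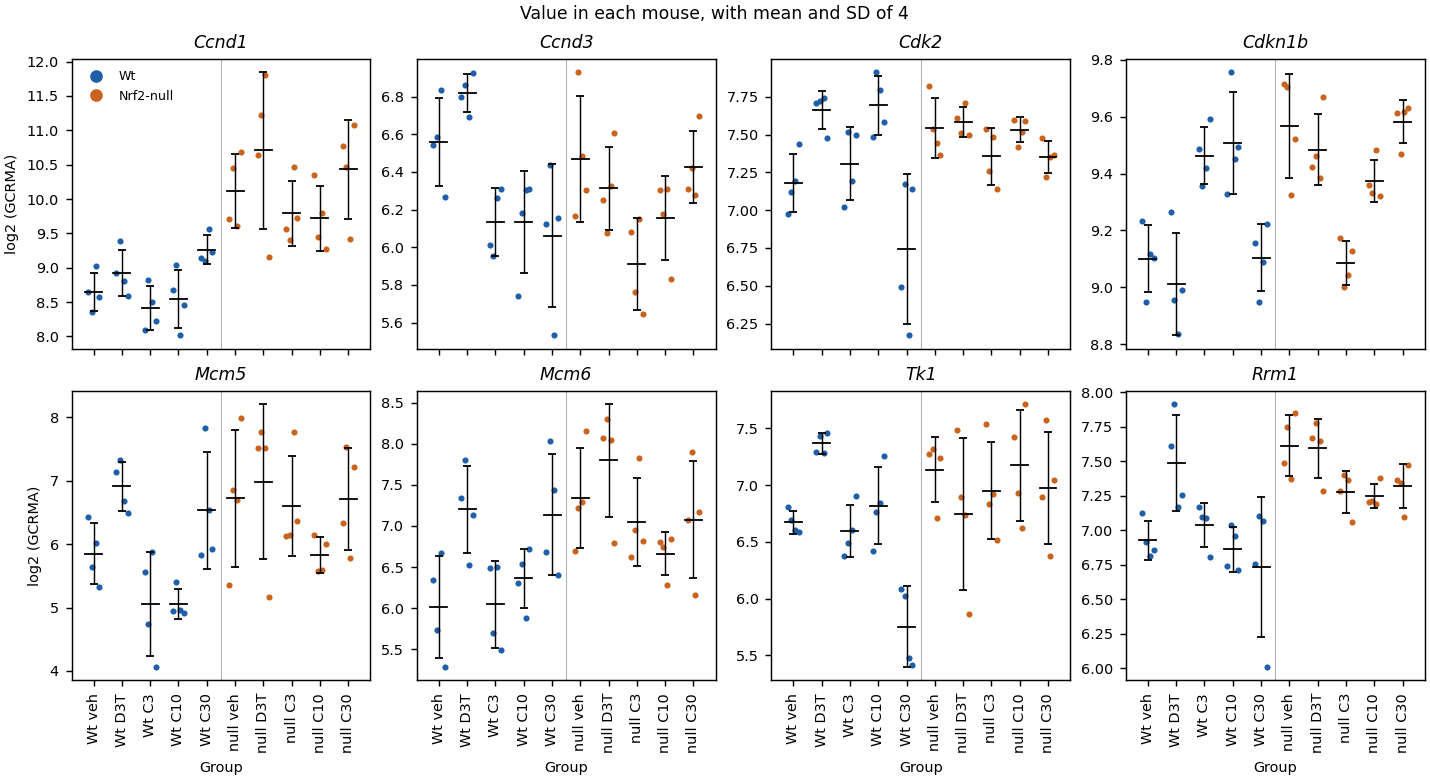
Log2 levels of 8 genes in each of 40 mice (points), with the group mean (bar) and SD (whiskers) of 4 mice, Wt in blue and Nrf2-null in orange, and groups along the horizontal axis (veh, vehicle; C3, C10 and C30, CDDO-Im at 3, 10 and 30 μmol/kg). Tk1 in the Wt 30 μmol/kg mice, at 5.41 to 6.09, lies below every other Wt mouse, and Ccnd1 is higher in the Nrf2-null groups.

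The minichromosome maintenance genes encode the helicase that unwinds DNA at origins, and 5 of the 6 listed were measured (Mcm2 was not). Mcm6 read 6.35, 5.73, 6.67 and 5.28 in Wt vehicle mice, 7.34, 7.81, 6.53 and 7.13 with D3T and 6.68, 8.03, 7.44 and 6.40 with CDDO-Im at 30 μmol/kg. The lowest mouse of each treated group lay within the vehicle range and the others above it. At 30 μmol/kg Mcm6 rose by 1.13 ± 0.392, or 1.29 relative to the median of all genes (limma, adjusted p = 0.0343), and the change with D3T was 1.19 (adjusted p = 0.0762). Between these treatments the difference was -0.06 with a 95% interval of -0.86 to 0.74. The call at 30 μmol/kg was lost with no expression minimum, with only the groups compared, without Wt vehicle replicates 2 or 4 or 30 μmol/kg replicates 2 or 3, at 0.83 to 1.04, and on a second probe set (0.69, limma, adjusted p = 0.271). Nrf2-null vehicle mice read 6.70, 7.22, 7.29 and 8.16, all above Wt vehicle, and the difference of 1.33 ± 0.392 (limma, adjusted p = 0.0244) was lost with only the groups compared, without Wt vehicle replicates 2 or 4 or Nrf2-null replicate 4 (1.06 to 1.24) and on the second probe set (1.09, adjusted p = 0.104).

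Mcm5 separated the compounds at the doses the study set against each other. It read 7.14, 7.33, 6.68 and 6.49 with D3T, 4.95, 5.41, 4.96 and 4.92 with CDDO-Im at 10 μmol/kg, 5.83, 7.83, 6.54 and 5.92 with 30 μmol/kg and 6.42, 5.64, 6.02 and 5.32 with vehicle. All D3T mice lay above all vehicle and all 10 μmol/kg mice. Mcm5 was lower with 10 μmol/kg CDDO-Im than with D3T by 1.85 ± 0.528, a 3.61-fold difference (limma, adjusted p = 0.0137) that held under every alternative and with any mouse left out, while D3T against vehicle gave 1.06 (adjusted p = 0.277). At 30 μmol/kg it was higher than at 10 μmol/kg by 1.47 (limma, adjusted p = 0.0465), and this was lost with no expression minimum and in 6 of 8 fits without a mouse, at 1.04 to 1.59 (all 10 μmol/kg replicates, 30 μmol/kg replicates 2 and 3).

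Mcm4 was also higher at 30 than at 10 μmol/kg. It read 7.19, 7.16, 7.13 and 7.21 at the lower dose and 7.86, 8.66, 8.12 and 7.78 at the higher, without overlap, and the difference was 0.93 ± 0.257 on this probe set and 0.89 on another (limma, adjusted p = 0.00982 and 0.00762). Without 30 μmol/kg replicate 2 it was 0.75 and not called (adjusted p = 0.0591). Second probe sets of Mcm4 and Mcm6 were also lower at 10 μmol/kg than with D3T (-0.87 and -1.28, limma, adjusted p = 0.00873 and 0.0375), where the first gave -0.56 and -0.84 without a call. Mcm3 was called between genotypes at 3 μmol/kg CDDO-Im, where Wt mice read 4.17, 4.50, 4.52 and 3.83 and Nrf2-null mice 5.86, 5.92, 6.49 and 5.73. The groups stood apart by more than 1 log2 unit, and the difference was 1.74 ± 0.403 (limma, adjusted p = 0.00495), with 1.52 on another probe set (adjusted p = 0.00411), which was also called between the vehicle groups (1.10, adjusted p = 0.0335), where the first gave 1.14 (adjusted p = 0.0625). Mcm7 read 9.27, 9.13, 8.80 and 8.59 with vehicle, 9.22, 9.11, 9.07 and 8.55 with D3T and 8.13, 8.57, 8.62 and 8.20 with CDDO-Im at 10 μmol/kg in Wt liver. The 10 μmol/kg mice overlapped both other groups only through the highest 1 or 2 of them. It was lower at that dose by 0.57 than with vehicle and by 0.61 than with D3T (limma, adjusted p = 0.0423 and 0.0291). With no expression minimum neither was called (limma, adjusted p = 0.085 and 0.0596), and the first was also lost on centring (-0.51, adjusted p = 0.0504) and with only the groups compared. Each call was lost in 5 of 8 fits without a mouse (-0.62 to -0.46 and -0.58 to -0.52), the first without vehicle replicates 1 to 3 or 10 μmol/kg replicates 1 or 4 and the second without D3T replicates 1 to 3 or the same 10 μmol/kg mice. The other 3 Mcm7 probe sets gave 0.04, -0.44 and -0.20 from vehicle without a call, and 1 of them was called against D3T (-0.64, limma, adjusted p = 0.00973).

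Pcna, the sliding clamp of DNA polymerase, varied little. It read 11.35, 11.37, 11.45 and 11.06 with D3T, 10.97, 10.94, 11.06 and 11.02 with CDDO-Im at 10 μmol/kg and 11.06, 11.15, 10.88 and 10.80 with 30 μmol/kg in Wt liver. The fourth D3T mouse stood just above the 10 μmol/kg mice and within the range of the 30 μmol/kg mice. Pcna was lower by 0.31 ± 0.0999 and by 0.34 ± 0.0999 than with D3T (limma, adjusted p = 0.0266 and 0.0104). The second value was -0.18 relative to the median of all genes, and the call was lost on centring (-0.15, limma, adjusted p = 0.262) and without 30 μmol/kg replicate 4 (-0.28). Among the 276 pairs of measured genes the median correlation of deviations from group means over 40 arrays was 0.102, and the Mcm genes stood out: 0.892 for Mcm4 with Mcm5, 0.885 for Mcm5 with Mcm6 and 0.87 for Mcm4 with Mcm6. These are descriptions of arrays that share groups of 4.

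Tk1, thymidine kinase of the salvage pathway, had the largest difference between 30 μmol/kg CDDO-Im and D3T. It read 7.29, 7.43, 7.28 and 7.46 with D3T, 6.81, 6.70, 6.60 and 6.59 with vehicle, 6.42, 6.76, 6.84 and 7.25 with 10 μmol/kg CDDO-Im and 6.09, 6.03, 5.48 and 5.41 with 30 μmol/kg. The D3T mice were the highest Wt mice and the 30 μmol/kg mice the lowest, with no overlap with any other of these groups. Tk1 at 30 μmol/kg was lower than with D3T by 1.61 ± 0.264, a 3.06-fold difference, lower than at 10 μmol/kg by 1.07 and lower than with vehicle by 0.92 (limma, adjusted p = 3.69e-05, 0.00434 and 0.0111). Relative to the median of all genes these were -1.45, -1.0 and -0.76, and all 3 calls held under every alternative and with any mouse left out. In Nrf2-null liver at 30 μmol/kg Tk1 read 6.89, 7.58, 6.38 and 7.04, all above the Wt mice of that dose by a mean of 1.22 ± 0.264 (limma, adjusted p = 0.000525), or 1.03 relative to the median of all genes. The test of whether the response to 30 μmol/kg differed between the genotypes did not pass for Tk1 (0.76, limma, adjusted p = 0.178).

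Rrm1, the large subunit of ribonucleotide reductase, read 7.13, 6.92, 6.81 and 6.86 with vehicle, 7.61, 7.92, 7.17 and 7.26 with D3T, 6.74, 7.04, 6.96 and 6.71 with CDDO-Im at 10 μmol/kg and 6.75, 7.10, 7.07 and 6.01 with 30 μmol/kg in Wt liver. All D3T mice lay above all mice of the other 3 groups. Against D3T it was lower by 0.63 ± 0.171 at 10 μmol/kg and by 0.76 ± 0.171 at 30 μmol/kg, the latter -0.60 relative to the median of all genes (limma, adjusted p = 0.0103 and 0.00116). Without D3T replicate 2 the first was 0.48 lower and not called. D3T against vehicle gave 0.56 (limma, adjusted p = 0.0533). Nrf2-null vehicle mice read 7.49, 7.75, 7.37 and 7.85, above every Wt vehicle mouse, and the difference of 0.69 ± 0.171 (limma, adjusted p = 0.00847) held under every alternative and with any mouse left out. Rrm2, the small subunit, read 7.89, 7.96, 8.52 and 8.15 in Wt and 7.08, 6.55, 6.76 and 6.07 in Nrf2-null mice at 10 μmol/kg CDDO-Im. All Wt mice of that dose exceeded all Nrf2-null mice, by 1.52 ± 0.344, and by 1.56 on another probe set (limma, adjusted p = 0.00336 and 0.00385). At 30 μmol/kg the Wt mice read 7.25, 9.19, 7.33 and 6.27 and the Nrf2-null mice 6.73, 6.08, 6.39 and 6.39, a difference of -1.11 (limma, adjusted p = 0.0111), or -1.30 relative to the median of all genes. The call was lost with only the groups compared, and without Wt replicate 2 the difference was -0.55 and not called. Rrm2 at 10 μmol/kg against vehicle was 0.89 (adjusted p = 0.071).

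The stress-inducible genes varied widely within groups. Gadd45g, which responds to DNA damage and cytokines, ranged from 5.37 to 11.16 over the 40 mice, Myc from 3.45 to 8.21 and Plk3, a stress-activated kinase, from 3.77 to 9.43. Myc read 6.03, 8.21, 6.06 and 4.47 in Wt vehicle mice, and Gadd45g in the same mice 7.11, 9.64, 7.38 and 5.81, so that replicate 2 was highest and replicate 4 lowest in both. Their deviations had a correlation of 0.742 over the 40 arrays. None of Gadd45a, Gadd45g, Myc and Plk3 passed the test in any comparison. Plk2, a related kinase, was called between genotypes at 30 μmol/kg CDDO-Im, at 7.54, 7.81, 7.86 and 7.71 in Wt and 8.45, 8.71, 7.98 and 8.64 in Nrf2-null mice (0.72 ± 0.235, limma, adjusted p = 0.016). This was 0.53 relative to the median of all genes, and the call was lost on centring (0.49, adjusted p = 0.108) and without Nrf2-null replicates 2 or 4 (0.63 and 0.65).

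With D3T in Wt liver, 0 of the 24 measured members passed the test against vehicle, beside 4.23% of all genes. By limma, 6 were below 0.05 unadjusted (25.0%, against 18.6% of all genes), and the smallest adjusted p was 0.053, for Rrm1. Without D3T replicate 4, 2 members were called. The median change of the members was 0.161 and that of all genes 0.0022. The list of other replication genes, with 38 of 53 measured, had a median of 0.212 and 3 calls: Lig1, DNA ligase I (0.93, limma, adjusted p = 0.0435), and Gins1, a subunit of the origin-firing complex (0.88, adjusted p = 0.0471), were higher and Fen1, the flap endonuclease, lower (-1.07, adjusted p = 0.00538). No other mitosis gene (18 measured of 45) and no other G1 or G2 regulator (29 of 40) was called.

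CDDO-Im at 3 μmol/kg gave 0 called members in Wt liver beside 0.474% of all genes (limma, 3 below 0.05 unadjusted against 10.5%). At 10 μmol/kg 2 members were higher, Cdk2 and Cdkn1b (5.06% of all genes), and 1 lower, Mcm7 (12.4%), with a median of -0.0836 against -0.0771. Of the other replication genes 2 were higher and 3 lower there (13.2% of 38 called), with Cdt1, a licensing factor, at 1.78 and its inhibitor Gmnn at 0.55 (limma, adjusted p = 0.015 and 0.0162). Of the other regulators 2 were higher and 4 lower (20.7% of 29 called), led by E2f8 at -1.99 and the mitotic inhibitor Wee1 at 1.71 (limma, adjusted p = 0.0117 and 0.00603). At 30 μmol/kg 1 member was higher, Mcm6 (2.81% of all genes), and 3 were lower, Tk1, Ccnd3 and Cdk2 (20.8%), with a median of -0.126 against -0.157. Of the 38 other replication genes measured 7 were lower (18.4%) and 0 higher, with Rpa3 at -0.87 and Rfc5 at -0.72 (limma, adjusted p = 0.000391 and 0.00476). Of the 29 other regulators 5 were lower (17.2%), led by Skp2 (-0.74, limma, adjusted p = 0.0425). Both shares lay below the 20.8% of all genes, and the medians were -0.219 and -0.156 beside -0.157. Markers of other cell types moved at these doses too. With 30 μmol/kg the neutrophil genes S100a8 and S100a9 were higher by 3.39 and 2.94, while the 5 other neutrophil and marrow markers stayed below the minimum. The summed level of S100a8 and S100a9 was 8.34 to 9.68 against 5.01 to 6.93 with vehicle. With 3 μmol/kg that sum spread from 5.36 to 10.4, with a median of 8.97, and neither gene was called. Marco, a scavenger receptor of macrophages, was higher by 3.49 as 1 of 8 macrophage markers called. The endothelial markers summed to 12.28 to 12.48 against 12.64 to 12.91 and the stellate markers to 13.69 to 13.81 against 13.82 to 13.94, both without overlap, and Fcgr2b (-0.55) was the endothelial marker called. Of the 6 hepatocyte markers Cps1 (-0.22) and Apoa1 (-0.15) were lower (limma, adjusted p = 0.00278 and 0.029). The median change of the hepatocyte markers was -0.12, of the stellate markers -0.139 and of the endothelial markers -0.249, beside -0.157 for all genes. At 10 μmol/kg Marco was higher by 1.96 as 1 of 8 macrophage markers called, while the median change of these 8 was -0.27. The bile duct marker Sox9 was at -0.78, beside a median of -0.342 for the 2 bile duct markers measured. The endothelial markers summed to 12.38 to 12.42 at that dose. The part of these in the results was not tested. The members called at 10 μmol/kg fell from 3 to 1 without vehicle replicate 1 or 2, and those at 30 μmol/kg from 4 to 1 without vehicle replicate 2 or 30 μmol/kg replicate 3.

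**Figure D3:**
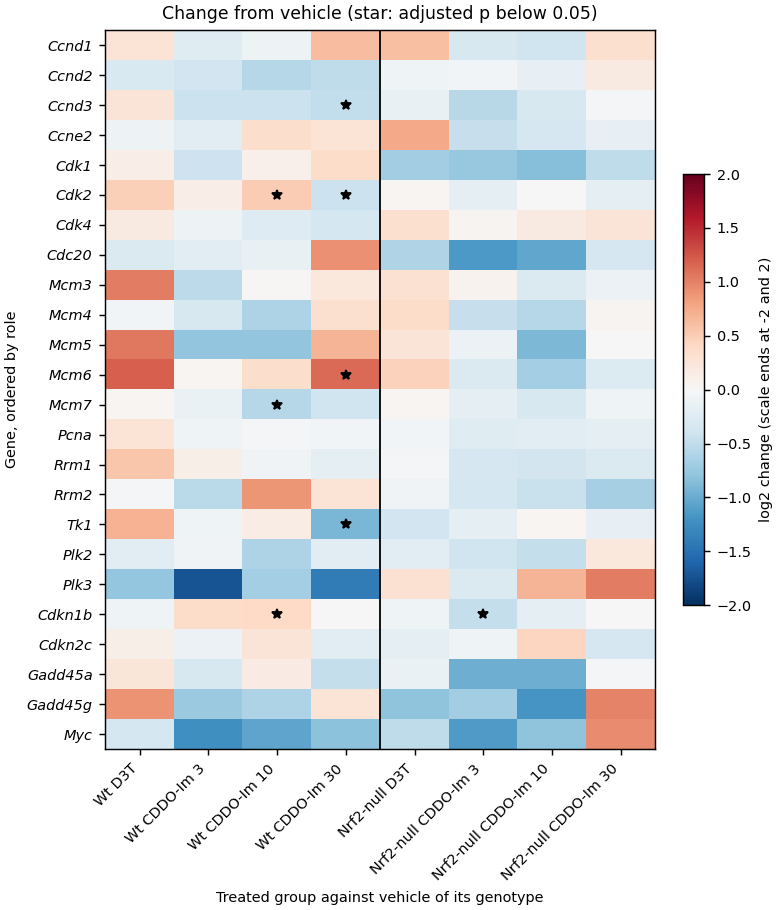
Log2 change from the vehicle of the same genotype for 24 genes (rows) in 8 treated groups (columns), red higher and blue lower, with a star where limma's adjusted p was below 0.05. In Wt liver stars stand for 2 genes higher and 1 lower at 10 μmol/kg CDDO-Im (5.06% and 12.4% of all genes). At 30 μmol/kg they stand for 1 higher and 3 lower (2.81% and 20.8%). In Nrf2-null liver Cdkn1b is starred as lower at 3 μmol/kg (0.464%).

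In Nrf2-null liver the treatments gave few calls. D3T gave 0 members (4.09% of all genes), 10 μmol/kg CDDO-Im 0 (0.0722%) and 30 μmol/kg 0 (0.175%), with 3, 4 and 0 members below 0.05 unadjusted by limma against 19.9%, 12.9% and 10.1% of all genes. At 3 μmol/kg 1 member, Cdkn1b, was lower (0.464%) and 0 higher (0.309%). These counts reached 3 for D3T without D3T replicate 4, 3 for 3 μmol/kg and 2 for 10 μmol/kg without vehicle replicate 1, and 0 for 3 μmol/kg without vehicle replicate 2. With D3T the macrophage marker C1qa (-1.03), the erythroid marker Alas2 (-1.03) and the stellate marker Colec11 (-0.55) were lower than with vehicle. Median changes were -0.691 for 8 macrophage, -0.416 for 2 erythroid and -0.139 for 5 stellate markers. The part of these markers was not tested. The median change of the members was -0.328 at 3 μmol/kg and -0.351 at 10 μmol/kg, where that of all genes was -0.0234 and 0.00513, and 2 and 4 members had a positive change. The test of the genotype difference itself gave 0 members for D3T (0.0722% of all genes; by limma, 3 below 0.05 unadjusted against 13.2%), 1 lower (1.7%) and 0 higher (3.7%) for 10 μmol/kg, Cdkn1b, and 1 higher (10.1%) and 0 lower (1.78%) for 30 μmol/kg, Cdk4.

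Between the vehicle groups 5 members were higher in Nrf2-null liver, Ccnd1, Mcm6, Cdk1, Rrm1 and Cdkn1b, and 0 lower, beside 5.85% of all genes higher and 4.97% lower. The median of the members was 0.322 and that of all genes 0.0105, and 18 of 24 were positive. Without Wt replicates 2 or 4 or Nrf2-null replicate 4, 3 members were called. Of the other replication genes 4 were higher and 1 lower (13.2% of 38 called): Cdt1 by 1.84, Prim1, the primase, by 1.21, Lig1 by 0.82 and Pola1, DNA polymerase α, by 0.66, with Fen1 at -1.35 (limma, adjusted p = 0.0183, 0.00705, 0.0444, 0.0432 and 0.000125). Of the other mitosis genes 4 were higher, led by the kinetochore gene Spc25 (1.16, limma, adjusted p = 0.0146), and Cks1b was lower (-0.86, adjusted p = 0.0135), with 27.8% of 18 called. Of the other regulators 3 were higher (10.3% of 29), Rbl1 (0.97), Tfdp2 (0.62) and Rbl2 (0.49), and 0 lower. The genotypes also differ in their runs of animal numbers, and the clock value of the Nrf2-null vehicle mice spread from -3.31 to 3.08. The endothelial markers, 6 of 7 measured, summed to 12.93 to 13.07 in Nrf2-null and 12.64 to 12.91 in Wt vehicle mice, and the stellate markers, 5 of 7, to 13.99 to 14.47 and 13.82 to 13.94, with Colec11 called (0.53). The part of these in the result was not tested.

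The same contrast was then made within each treatment, a choice made after the vehicle comparison was seen. With D3T 3 members were higher in Nrf2-null liver, Ccnd1, Ccne2 and Cdkn1b (4.45% of all genes), and 0 lower (4.72%), and 5 were called without Nrf2-null replicate 4. With 3 μmol/kg CDDO-Im 2 were higher, Mcm3 and Ccnd1 (4.67%), and 1 lower, Cdkn1b (4.93%). With 10 μmol/kg 1 was higher, Ccnd1 (11.2%), and 1 lower, Rrm2 (3.33%). The clock value at this dose was 2.78 (2.3 to 3.99) in Wt and -0.148 (-2.55 to 2.33) in Nrf2-null liver, and its part was not tested. With 30 μmol/kg 8 were higher, Tk1, Ccnd1, Plk2, Cdk2, Mcm7, Rrm1, Cdkn1b and Cdk4 (31.7%), and 1 lower, Rrm2 (6.87%). These 9 were 37.5% of the members, near the share of all genes called, 3736 of 9695. The members' median there was 0.464 and that of all genes 0.188. Of the other replication genes 11 were higher and 1 lower (31.6% of 38 called), with Prim1 at 1.35 and Fen1 at -1.46 (limma, adjusted p = 0.000554 and 9.51e-06). Of the other mitosis genes 7 were higher (38.9% of 18), led by Cenpa, the centromeric histone (1.34, limma, adjusted p = 2.45e-05). The values for Mcm7 (0.61), Rrm1 (0.59) and Cdk4 (0.45) were 0.42, 0.40 and 0.26 relative to the median of all genes, and the Mcm7 call was lost on centring (0.38) and without Wt 30 μmol/kg replicates 3 or 4 or Nrf2-null replicate 2 (0.48 to 0.53). None of the other 3 Mcm7 probe sets was called (0.25 to 0.34). With arrays centred, 3 members were called in this comparison in place of 9.

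Cell type markers also differed between the genotypes within treatments. With D3T the neutrophil genes S100a8 and S100a9 were higher in Nrf2-null liver by 2.35 and 2.18 (limma, adjusted p = 0.0471 and 0.049), with a summed level of 7.31 to 9.62 against 5.34 to 6.90, and Cps1 was higher by 0.16. The endothelial markers summed to 11.27 to 12.97 in Nrf2-null and 12.55 to 12.70 in Wt mice given D3T. The macrophage markers summed to 11.73 to 13.87 and 13.24 to 13.76 in these groups. With 3 μmol/kg CDDO-Im Marco was lower by 1.96, Hnf4a by 0.57, and Apoa1 was higher by 0.16. With 10 μmol/kg Marco was lower by 2.21 as 1 of 8 macrophage markers called, while the median change of these 8 was 0.362. Clec4g (0.74), Colec11 (0.49) and Apoa1 (0.23) were higher at that dose. With 30 μmol/kg the endothelial markers summed to 12.90 to 13.13 in Nrf2-null and 12.28 to 12.48 in Wt mice, the stellate markers to 14.09 to 14.22 and 13.69 to 13.81, and the hepatocyte markers to 18.21 to 18.28 and 18.04 to 18.13. None of these 3 sums overlapped between genotypes. The median change of the endothelial markers was 0.566, of the stellate markers 0.375 and of the hepatocyte markers 0.167, beside 0.188 for all genes. Of the endothelial markers 3 of 6 were higher, among them Fcgr2b (0.72) and Clec4g (0.68). Colec11 (0.75), Apoa1 (0.26) and Cps1 (0.23) were higher too. Of the 8 macrophage markers Timd4 (1.21) and C1qa (0.88) were higher and Marco was lower by 3.2 log2 units, with a median change of 0.387. The part of these markers in the members' differences was not tested.

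**Figure D4:**
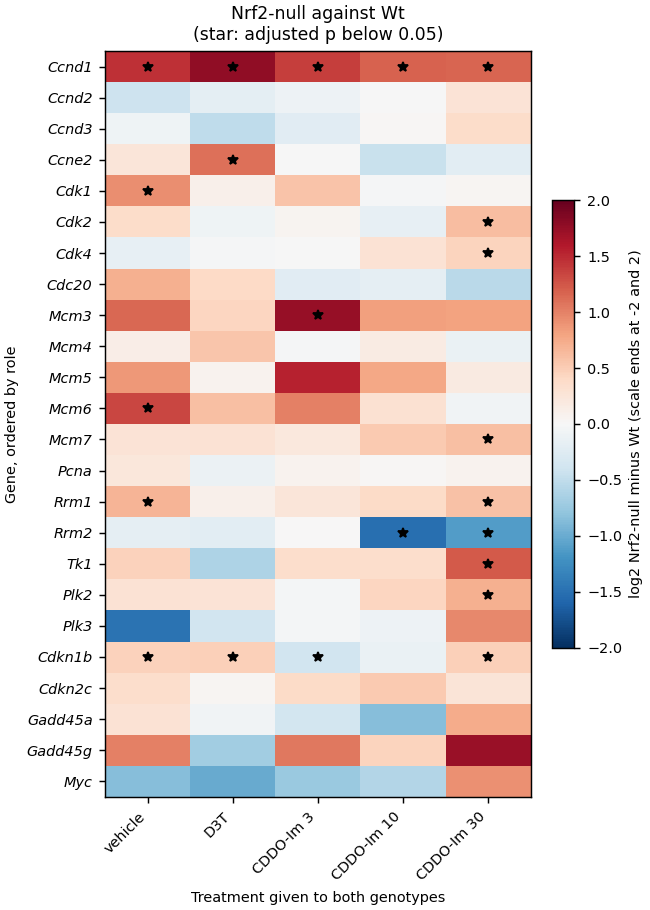
Log2 difference between Nrf2-null and Wt livers for 24 genes (rows) under each of 5 treatments (columns), red higher in Nrf2-null, with a star where limma's adjusted p was below 0.05. The Ccnd1 row is starred throughout, at 1.46, 1.78, 1.38, 1.17 and 1.17. The column of 30 μmol/kg CDDO-Im holds 9 stars, or 37.5% of the members, beside 31.7% of all genes higher and 6.87% lower.

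The compounds were last set against each other in Wt liver. At 10 μmol/kg CDDO-Im 6 members were lower than with D3T, Mcm5, Ccnd3, Rrm1, Mcm7, Cdk4 and Pcna (13.8% of all genes), and 1 was higher, Cdkn1b (4.87%). That is 25.0% of the members against 13.8% of all genes, with a median of -0.39 against -0.0908. Without D3T replicate 2, 3 members were called. At 30 μmol/kg, in mice of 1 run of animal numbers, 6 were lower, Tk1, Cdk2, Ccnd3, Rrm1, Cdk4 and Pcna (26.2%), and 0 higher (4.45%). Their share, 25.0%, was near that of all genes, and their median was -0.36 against -0.161. Of the other replication genes 19 of 38 were lower than with D3T at 30 μmol/kg and 11 of 38 at 10 μmol/kg, with 1 higher at each dose, Fen1. Rpa3, of the single-strand binding complex, was at -1.02 and Rfc5, of the clamp loader, at -0.98 at 30 μmol/kg (limma, adjusted p = 3.55e-05 and 0.000152). Cdkn1a, the p53-inducible inhibitor p21, was higher by 1.70 at that dose (adjusted p = 0.0222) and 2 of 10 p53 targets were higher and 1 lower. Between these mice S100a8 (2.98), S100a9 (2.49) and Marco (2.42) were also higher and Apoa1 lower (-0.22), and the endothelial markers summed to 12.28 to 12.48 against 12.55 to 12.70 with D3T. At 10 μmol/kg that sum was 12.38 to 12.42, and the stellate marker Lrat (-0.72) and Apoa1 (-0.18) were lower than with D3T. The part of these markers was not tested. Between 30 and 10 μmol/kg 2 members were higher, Mcm4 and Mcm5 (5.25%), and 3 lower, Tk1, Cdk2 and Cdkn1b (14.2%), with a median of 0.0175 against -0.0671. The comparisons with D3T share the same 4 D3T mice, and those with 10 μmol/kg the same 4 mice with the clock values given above, whose part was not tested.

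**Figure D5:**
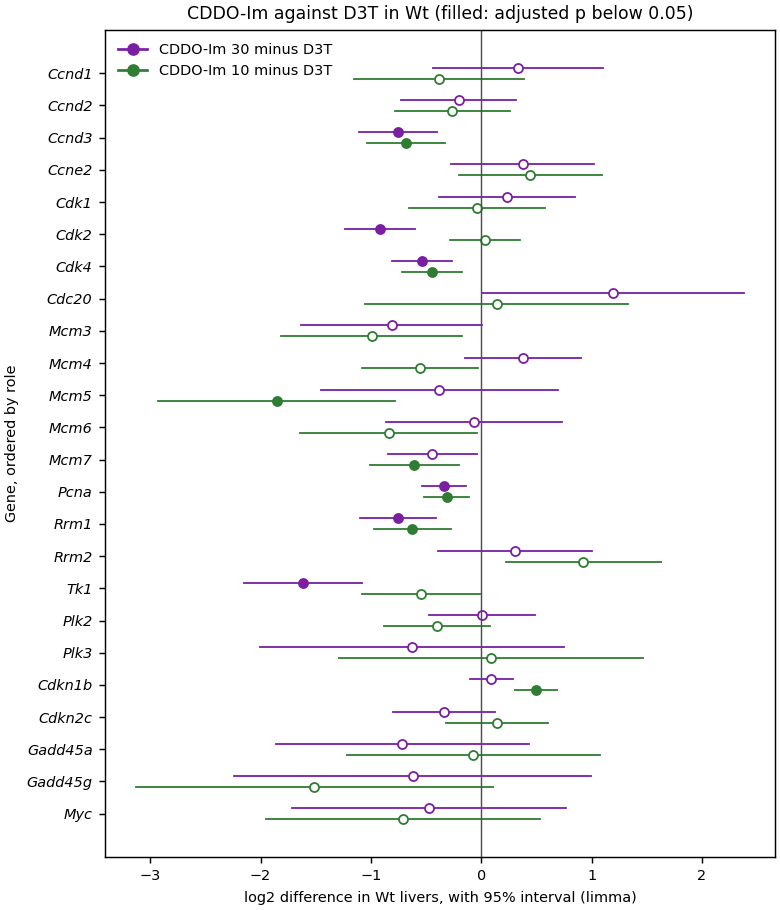
Log2 difference of 30 μmol/kg (purple) and 10 μmol/kg (green) CDDO-Im from D3T in Wt liver for 24 genes, with 95% intervals from limma and filled points where the adjusted p was below 0.05. Tk1 and Cdk2 separate the doses, at -1.61 and -0.92 for the higher one, while Ccnd3, Rrm1, Cdk4 and Pcna are lower at both.

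Ccnd2, Cdkn2c, Cdc20, Gadd45a, Gadd45g, Myc and Plk3 completed the measured set without a call in any of the 15 planned comparisons or the 4 between genotypes within a treatment. Their standard errors of a 2-group difference ran from 0.227 for Cdkn2c to 0.794 for Gadd45g. For Cdc20 the value closest to a call was 1.19 for 30 μmol/kg CDDO-Im against D3T (limma, adjusted p = 0.119), and it rested on the mouse at 7.42.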

How the data were processed

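Liver RNA of 40 mice was hybridised to 40 Affymetrix arrays, 1 per mouse. The deposited values are log2 signals that the authors normalized with GCRMA, per the submitters' processing notes. Of 45037 probe sets, 34945 had 1 gene symbol, 932 several and 9160 none, and only the first were used. Of 18935 probe sets reaching log2 4 on at least 3 of the 4 arrays of a group, 16472 had 1 symbol and gave 9695 genes, each by its probe set of highest mean. The 40 genes and all other lists were chosen with earlier results of these data known. The genes named with values were those called in a comparison, with the uncalled ones by range. One limma model (R 4.3.3, limma 3.58.1, statmod 1.5.0) over 10 groups, with an intensity trend and robust variances, gave 15 comparisons, and 4 were added after values were seen. P-values were adjusted by Benjamini-Hochberg over all 9695 genes, with calls at 0.05. Scripts were tested on simulated data. An exact two-sided permutation test of 4 mice against 4 cannot go below 0.029. The number of arrays limits the precision, since arrays hold no read depth. Tables and figures used Python 3.11.15, pandas 2.3.3, numpy 2.4.6 and matplotlib 3.10.9. Alternatives were no minimum and a minimum of log2 5, centred arrays, variances without trend or robustness, array weights, only the groups compared, the probe set of largest variance, a replicate block, repeated quantile normalization and leaving out each mouse.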

Additional observations from a re-analysis of the deposited data

Results flagged for a closer look

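In 170 groups of 4 mice over 17 genes, 13 had 1 mouse standing far from the other 3 by Dixon's test, and chance gives about 5% of groups. Cdk1 did so 3 times, at 3.80 in Wt 10 μmol/kg CDDO-Im replicate 4 (others 3.66 to 3.67), 4.07 in Nrf2-null 3 μmol/kg replicate 3 (3.66 to 3.67) and 3.67 in Nrf2-null 30 μmol/kg replicate 3 (4.09 to 4.17). Nrf2-null D3T replicate 4 was low for Mcm3, at 4.11 (others 6.91 to 6.96), and for Mcm5, at 5.16 (7.51 to 7.77). Mcm5 was high in Wt 10 μmol/kg replicate 2, at 5.41, and in Nrf2-null 3 μmol/kg replicate 3, at 7.77. Wt D3T replicate 4 was low for Cdk2, at 7.48, and for Plk2, at 7.52. Cdkn1b was low in Nrf2-null 30 μmol/kg replicate 2 (9.47), Rrm1 high in Nrf2-null 10 μmol/kg replicate 4 (7.38), Rrm2 low in Wt vehicle replicate 1 (6.85) and Tk1 low in Nrf2-null vehicle replicate 3 (6.71).

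The response differed between genotypes by limma's test of the difference for Cdkn1b at 10 μmol/kg CDDO-Im (-0.60) and for Cdk4 at 30 μmol/kg (0.61). As given above, the second Cdkn1b probe set gave no call. The Cdk4 call was lost on centring, with no expression minimum, with only the groups compared and on both other probe sets.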

How the results depend on the processing

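Of 171 recalculated counts of members called, 134 lay within 1.5 times the reported count. With no expression minimum (39 members), 1 was called for 30 μmol/kg CDDO-Im against vehicle in Wt liver, 0 for the genotype difference at that dose and 1 between genotypes at 10 μmol/kg. With arrays centred these were 2, 0 and 1, with 1 for D3T in Wt liver and 3 between genotypes at 30 μmol/kg. With quantile normalization repeated, an alternative chosen after seeing the data, D3T in Wt liver gave 1, 30 μmol/kg 2, the genotype difference at 30 μmol/kg 0 and the genotypes at that dose 4. With array weights Wt liver gave 6 for D3T, 2, 6 and 7 for the rising doses, Nrf2-null liver 1 (D3T), 3 (3 μmol/kg) and 1 (10 μmol/kg), the genotype differences 2 at 10 and 4 at 30 μmol/kg, and the genotypes under D3T 5. With only the groups compared, D3T gave 3 and 10 μmol/kg 6 in Wt liver, 3 μmol/kg 0 in Nrf2-null liver, the vehicle genotypes 3, the genotype differences 2 at 10 and 0 at 30 μmol/kg, and the genotypes 0 under D3T and 5 at 10 μmol/kg. With the probe set of largest variance, 3 μmol/kg gave 0 in Nrf2-null liver, the vehicle genotypes 3, both genotype differences 0, and the genotypes 1 at 3 and 1 at 10 μmol/kg. That probe set reversed Cdkn1b for 3 μmol/kg against vehicle in Nrf2-null liver (0.25) and between genotypes at 3 μmol/kg (0.33). The cause was not tested.

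Leaving out 1 mouse at a time, the counts against vehicle in Wt liver ran from 0 to 2 for D3T, 0 to 0, 1 to 3 and 1 to 4 for the rising doses, and in Nrf2-null liver from 0 to 3, 0 to 3, 0 to 2 and 0 to 0. The genotype differences ran from 0 to 0 for D3T, 1 to 1 at 10 and 0 to 2 at 30 μmol/kg, and the genotypes from 3 to 6 with vehicle, 2 to 5 with D3T and 2 to 4, 1 to 3 and 7 to 9 for the rising doses. Between treatments they ran from 3 to 7 between D3T and 10 μmol/kg, 5 to 7 between D3T and 30 μmol/kg and 4 to 5 for 30 against 10 μmol/kg. Of 384 such fits of named genes 310 kept the call and 74 lost it.

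Replicate numbers did not pair the mice: deviations of same-numbered mice had a median correlation of 0.00395 (lowest -0.317), and 8 of 40 arrays correlated best with their own number. With the replicate number as a block, 1 member was called for D3T in Wt liver and 6 between the vehicle genotypes, and the other 17 counts were as reported.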
